A study of Mus musculus with 14 samples.

Results

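The genes described here handle noradrenaline and related amines in 3T3-L1 cells: the noradrenaline transporter gene Slc6a2 and the monoamine oxidase genes Maoa and Maob. They belong to a set of 6 genes listed by name for noradrenaline uptake, adrenoceptors and catecholamine breakdown, and 3 of the 6 were matched to a probe set, out of 18193 genes measured. The adrenoceptor genes Adrb1, Adrb3 and Adra2a were not matched to a probe set and were not analysed here. Each gene was represented by the probe set of that gene alone with the highest mean over the 14 arrays. Slc6a2 was chosen by its measured levels, which were seen to rise with differentiation and to be lower in knockdown cells at day 7. Its values in those comparisons are therefore given as a description, with no test.

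3T3-L1 is a mouse preadipocyte line whose fibroblast-like cells become fat cells in differentiation medium. Knockdown cells had received lentivirus carrying a sequence against TP53INP2 ("KD TP53INP2", written KD below), and Control cells lentivirus with a scrambled sequence. There were 4 arrays of KD and 4 of Control cells at day 7 of differentiation, and 3 arrays of KD and 3 of Control cells at day 0, taken after confluence and before the medium was changed. Whether the replicates were separate cultures is not stated in the labels. The p-values therefore reflect the spread among these arrays alone, and that spread may be technical. A lasting difference between the KD and Control cells that does not come from the knockdown cannot be told apart from its effect.

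Noradrenaline is released by sympathetic nerves in fat tissue and acts on adrenoceptors of the fat cell, where beta receptors raise cyclic AMP and with it lipolysis, and alpha-2 receptors lower it. The signal ends when the amine is taken up through SLC6A2, best known from sympathetic neurons, or through less selective organic cation transporters, and is broken down by monoamine oxidases in the outer mitochondrial membrane and by catechol-O-methyltransferase. MAOA prefers noradrenaline and serotonin, and MAOB prefers phenylethylamine. Messenger RNA levels on these arrays do not measure uptake or enzyme activity.

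Of the 3 measured genes, Maoa had a match in the RefSeq promoter table of GRCm38.p6. The 250 bases before its annotated start are printed as the context of that gene, and lie at chrX:16619448-16619697 on the plus strand. Capitals mark CCGCCC, the core of the GC box bound by Sp1 and Kruppel-like factors, and TGACG, a half-site of the cyclic AMP response element, both searched on both strands and not overlapping here. The motifs were picked after the sequence was seen.
Maoa: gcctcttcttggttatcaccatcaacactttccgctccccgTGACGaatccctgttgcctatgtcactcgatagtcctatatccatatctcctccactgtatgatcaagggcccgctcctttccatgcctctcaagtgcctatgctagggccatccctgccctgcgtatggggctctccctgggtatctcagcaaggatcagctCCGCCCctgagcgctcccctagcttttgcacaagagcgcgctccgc
Each motif occurred 1 time. Of 32851 promoter windows of this length, 32.7% held CCGCCC and 17.8% held TGACG. A match is a description of the letters and not a measured binding site.

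Facts of the whole series that bear on these genes are few. By its brighter probe set, Trp53inp2 itself was lower in all KD arrays than in all same-day Control arrays, with 33.7% of the Control level at day 7 (adjusted p = 0.000111, limma) and 44.4% at day 0 (adjusted p = 0.00205). Its second, dim probe set had 0.24 ± 0.19 at day 7 and 0.20 ± 0.22 at day 0 (SE), without passing at day 7 (adjusted p = 0.569, limma on all probe sets) or day 0 (adjusted p = 0.728). The fat cell label of the day 7 cells was met: Adipoq, which encodes adiponectin, was higher at day 7 than at day 0 by 6.03 ± 1.05 in KD cells and by 5.87 ± 1.05 in Control cells (log2 difference ± SE, adjusted p = 0.000611 and 0.00161, limma). The other matched adipocyte markers also rose in both genotypes, apart from Lpl. Lpl had -0.10 ± 0.08 in KD and -0.08 ± 0.08 in Control cells (SE, adjusted p = 0.363 and 0.526, limma). Most markers of sympathetic neurons, the cell type best known for Slc6a2, were low. The mean log2 level of 9 matched markers of 10 listed ran from 4.27 to 4.53 in KD and from 4.12 to 4.49 in Control arrays at day 7. At day 0 it ran from 3.79 to 3.88 in KD and from 3.93 to 4.13 in Control arrays. The neuronal regulator gene Phox2a stayed between 2.50 and 2.97 at day 7 and between 2.51 and 3.05 at day 0, near the bottom of a scale that runs from 1.13 to 14.37. Snap25, a vesicle fusion gene on the same list, was brighter, with 8.93 ± 0.45 in KD and 7.35 ± 1.12 in Control cells at day 7 (SD, n = 4 each). At day 0 it averaged 3.84 in KD and 4.17 in Control cells. It rose by 5.09 ± 0.52 in KD and by 3.19 ± 0.52 in Control cells (SE, adjusted p = 1.08e-05 and 0.000842, limma). That rise enters the day 7 means of the list. Syp of that list had group means from 5.32 to 6.02. The mean levels of macrophage, endothelial and Schwann cell markers lay between 3.15 and 4.57 in all arrays, and that of 6 smooth muscle markers between 5.33 and 6.24. Single members were brighter than these means. Cd68 of the macrophage list had group means from 6.39 to 6.96, and S100b of the Schwann cell list was at 6.07 in KD cells at day 7. Of the smooth muscle list, Acta2, which fibroblast-like cells also express, was at 10.43 ± 0.22 in KD and 11.56 ± 0.13 in Control cells at day 0 (SD, n = 3 each), a difference that did not pass (-1.14 ± 0.47, SE, adjusted p = 0.265, limma). Des of that list was higher in KD cells at day 7 and passed (0.61 ± 0.16, SE, adjusted p = 0.044, limma). The preadipocyte marker Pdgfra was lower in KD cells at day 7 and also passed (-0.49 ± 0.13, SE, adjusted p = 0.0436, limma). The part of these cell markers in the values below was not tested. Replicates 1 and 2 lay closer to each other than to the others in each group, most of all at day 7, and several results below are also given with them averaged.

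Slc6a2 was high in 1 of the 4 groups, differentiated Control cells, and low in the other 3. At day 7 its log2 levels were 4.50, 4.90, 6.84 and 4.41 in KD replicates 1 to 4, against 7.42, 7.43, 8.87 and 8.15 in the Control replicates of the same numbers. At day 0 they were 4.70, 4.06 and 4.64 in KD cells, against 5.70, 4.76 and 4.25 in Control cells. All 4 KD arrays lay below all 4 Control arrays at day 7, while KD replicate 3 stood well above the other KD arrays. At day 0 the groups overlapped.

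**Figure D1:**
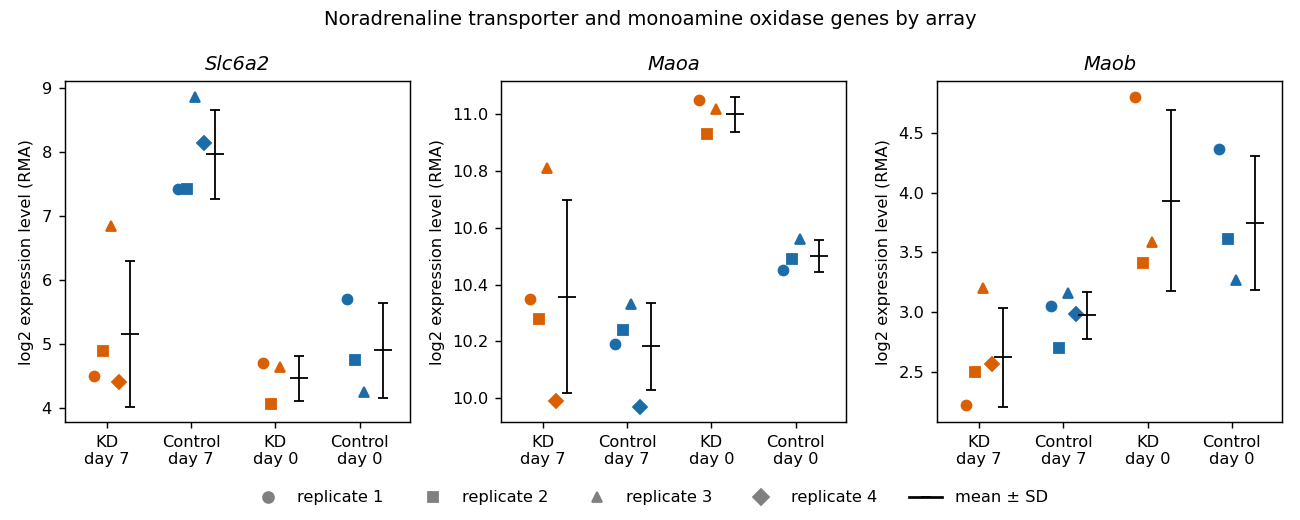
Log2 expression levels of Slc6a2, Maoa and Maob in each of the 14 arrays, KD in orange and Control in blue, with symbols for the replicate number and bars for the group mean ± SD; each panel has its own vertical scale. Slc6a2 is at 7.42 or above in the 4 Control arrays at day 7 and at 6.84 or below in the 4 KD arrays. Maoa in the 3 KD arrays at day 0 lies above every other array.

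In group means, Slc6a2 was at 5.16 ± 1.14 in KD and 7.97 ± 0.69 in Control cells at day 7 (SD, n = 4 each), a log2 difference of -2.81 ± 0.52 (SE), which is 14.3% of the Control level. The same-number differences were -2.92, -2.53, -2.03 and -3.74, all in one direction. Without KD replicate 3 of day 7 the difference was -3.37. The day 7 minus day 0 difference in Control cells was 3.06 ± 0.56, with every day 7 array above every day 0 array. In KD cells that difference was 0.69 ± 0.56, with overlapping arrays, and 0.13 without KD replicate 3 of day 7. The KD minus Control difference at day 7, less that at day 0, was -2.37 ± 0.79 (SE). These 4 differences are those for which the gene was chosen, and they share arrays with each other.

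The comparison of KD with Control cells at day 0 was not itself used in the choice of Slc6a2. Its arrays do enter the rise with differentiation that was used, so it is not independent of the choice. At day 0 Slc6a2 averaged 4.47 ± 0.35 in KD and 4.90 ± 0.74 in Control cells (SD, n = 3 each). The log2 difference of -0.43 ± 0.60 (SE, 95% confidence interval -1.73 to 0.86) did not pass the test (adjusted p = 0.803, limma). KD was lower in replicates 1 and 2, with differences of -1.0 and -0.70, and higher in replicate 3, with 0.39. The interval is wide enough to hold both a 2-fold decrease and no change. The 6 levels, from 4.06 to 5.70, lay near or below the array medians of 5.44 to 5.57. The difference moved with single arrays, being -0.04 without Control replicate 1 and -0.76 without Control replicate 3. The 3' minus 5' level of the beta-actin control probe sets, an RNA quality measure, was lower in all 3 KD arrays than in all 3 Control arrays of day 0. With it as a covariate the difference was -1.27. None of the 26 alternatives passed, with adjusted p from 0.251 to 0.994 (limma).

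Slc6a2 has 4 probe sets on the array, and they did not all follow the brightest, 1460129_at, on which the values above rest. The probe set 1421641_at gave 3.33, 3.69, 3.61 and 3.39 in KD and 4.17, 4.28, 4.37 and 3.98 in Control arrays at day 7. The groups did not overlap there either, with a log2 difference of -0.69 ± 0.11 (SE). The share of all probe sets that separate in this way at day 7 is not given here. The separation is therefore only described, and the comparison is among those for which the gene was chosen. This probe set was dim, below the array medians of 5.44 to 5.57 in every array. It was at 3.56 to 3.74 in KD and 3.66 to 3.87 in Control arrays at day 0. The other probe sets showed no such separation at day 7. Their differences were -0.12 ± 0.16 for 1447311_at, with KD arrays from 3.97 to 4.49 and Control arrays from 4.16 to 4.79, and 0.02 ± 0.13 for 1442449_at. With the mean of all 4 probe sets, the day 7 difference of Slc6a2 was -0.90 in place of -2.81.

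**Figure D2:**
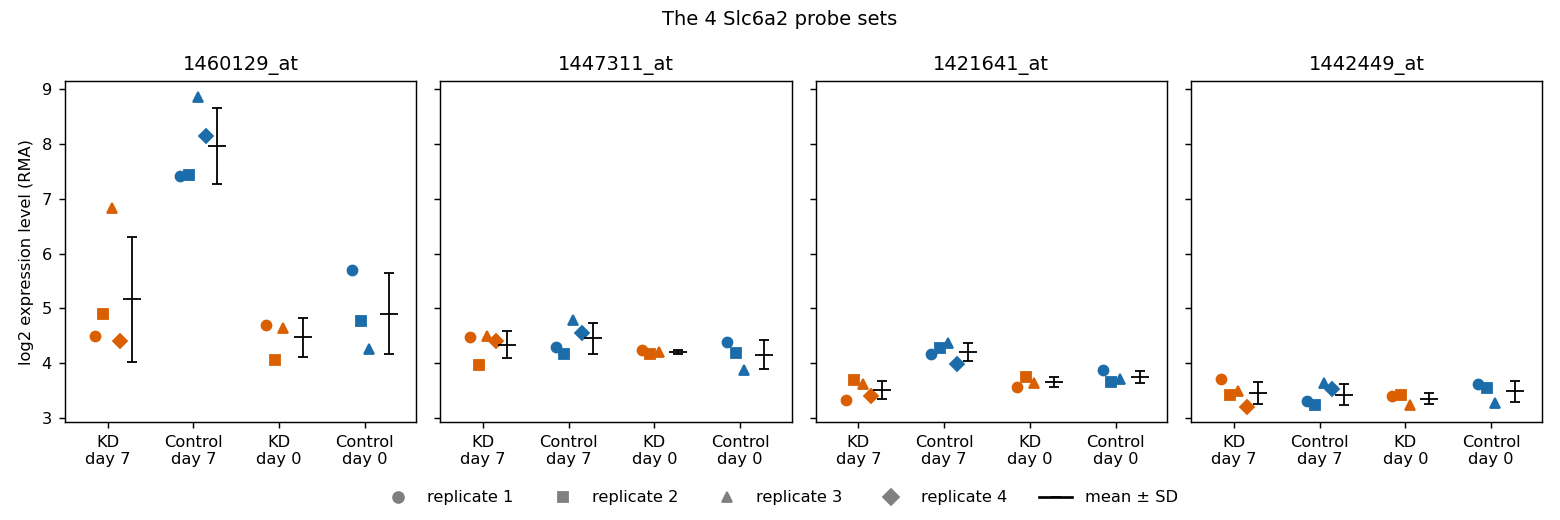
Log2 levels of the 4 Slc6a2 probe sets in each array on 1 shared vertical scale, with KD in orange, Control in blue and bars for mean ± SD. KD and Control arrays of day 7 are apart in 1460129_at and, on a smaller scale, in 1421641_at, and overlap in 1447311_at and 1442449_at.

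Among the day 7 arrays of each genotype, those with more adipocyte marker signal had less Slc6a2, apart from Control replicates 1 and 2, which were alike in both. The mean log2 level of 8 matched adipocyte markers of 10 listed, among them the lipid binding protein gene Fabp4 and the transcription factor gene Pparg, was 12.02, 11.99, 11.03 and 12.14 in KD replicates 1 to 4 and 11.46, 11.54, 10.04 and 10.20 in the Control replicates. In KD cells, replicate 3 had the lowest marker mean and the highest Slc6a2 level. In Control cells, replicates 3 and 4 had the lowest marker means and the highest Slc6a2 levels. KD replicate 3 had a lower marker mean than Control replicates 1 and 2 and also a lower Slc6a2 level, 6.84 against 7.42 and 7.43. Preadipocyte markers (4 matched of 5 listed) had means of 9.25, 9.35, 10.41 and 9.32 in KD and 10.10, 10.04, 10.42 and 10.23 in Control replicates. Arrays of a group share their cells' history and processing, the number of arrays is small, and the part of these markers in the Slc6a2 difference was not tested. Fewer cells that carry a messenger RNA and less of it in each cell cannot be told apart in such bulk samples.

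**Figure D3:**
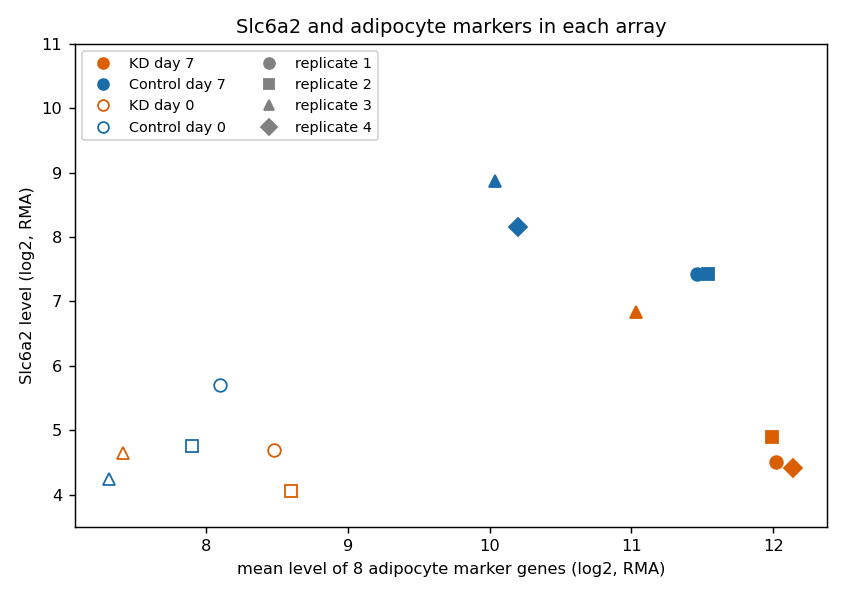
Log2 level of Slc6a2 on the vertical axis against the mean log2 level of 8 adipocyte markers on the horizontal axis, 1 symbol per array, filled for day 7 and open for day 0, with KD in orange and Control in blue. At day 7 the highest Slc6a2 is in Control replicates 3 and 4, at marker means of 10.04 and 10.20. The lowest is in KD replicates 1, 2 and 4, at marker means of 11.99 to 12.14. KD replicate 3, at 11.03, has less Slc6a2 than Control replicates 1 and 2, at 11.46 and 11.54. Day 0 arrays lie low on both axes.

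The genes whose levels followed Slc6a2 most closely over the 14 arrays, among the 9096 genes brighter than the median gene, were Cebpd (Pearson r = 0.960), Ip6k2 (0.958), Cyp1b1 (0.941), Epn2 (0.922) and Layn (0.920). These values describe likeness over 14 arrays that fall into 4 groups and carry no test. Cebpd, a transcription factor gene of early adipogenesis, was at 10.02 ± 0.45 in KD and 10.92 ± 0.23 in Control cells at day 7 (SD, n = 4 each). At day 0 it was at 9.74 ± 0.10 in KD and 9.97 ± 0.06 in Control cells (SD, n = 3 each). Ip6k2, an inositol hexakisphosphate kinase gene, was at 8.82 ± 0.26 in KD and 9.34 ± 0.12 in Control cells at day 7. The span of these genes over the groups was smaller than that of Slc6a2.

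The monoamine oxidase genes were tested in all comparisons, and their KD differences did not pass at either day. At day 0 none of the 3 genes was called (0 of 3, limma; 1 of 3 at an unadjusted p under 0.05), where 1.8% of all genes were called, 0.467% higher and 1.34% lower. At day 7 none of the 2 monoamine oxidase genes was called (0 of 2, and 0 at an unadjusted p under 0.05), where 6.58% of all genes were called, 3.01% higher and 3.57% lower.

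Maoa had the clearest KD difference at day 0. Its log2 levels were 11.05, 10.93 and 11.02 in KD replicates, against 10.45, 10.49 and 10.56 in Control replicates. The KD arrays all lay above the Control arrays and the same-number differences were 0.60, 0.44 and 0.47. How many of all genes separate in this way at day 0 is not given here, so the separation is only described. The log2 difference of 0.50 ± 0.17 (SE, 95% confidence interval 0.14 to 0.86), or 141% of the Control level, did not pass over all genes (adjusted p = 0.163, limma). With the replicate number as a block it passed, at adjusted p = 0.0475 for the same difference, where 572 genes were called in place of 328. Without KD replicate 3 of day 7, an array outside the comparison that sets the shared spread, the adjusted p was 0.0459. Over all 26 alternatives it ran from 0.0459 to 0.698. The beta-actin 3' minus 5' level at day 0 was 3.23, 2.97 and 2.74 in KD and 3.76, 3.54 and 3.32 in Control arrays. With that measure as a covariate the Maoa difference was 0.24 (adjusted p = 0.522, limma).

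The second Maoa probe set, 1442676_at, gave 8.47, 8.69 and 8.57 in KD and 8.15, 7.99 and 8.23 in Control arrays at day 0, again without overlap (0.46 ± 0.29, SE; adjusted p = 0.479 over all probe sets, limma). At day 7 the brighter probe set was at 10.35, 10.28, 10.81 and 9.99 in KD and 10.19, 10.24, 10.33 and 9.97 in Control replicates, with overlapping groups. The difference was 0.17 ± 0.14 (SE, 95% confidence interval -0.14 to 0.48, adjusted p = 0.518, limma), and -0.16 by the second probe set. KD replicate 3 was the highest KD array for Maoa at day 7, as it was for Slc6a2 and Maob. The KD differences of the 2 days were not shown to differ (-0.32 ± 0.22, SE, adjusted p = 0.566, limma), and for that comparison 0.022% of all genes were called.

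Maob was dim in every array. Its log2 levels were 2.23, 2.50, 3.20 and 2.57 in KD and 3.05, 2.70, 3.16 and 2.99 in Control replicates at day 7. At day 0 they were 4.80, 3.41 and 3.59 in KD and 4.36, 3.61 and 3.27 in Control replicates. KD and Control arrays overlapped at both days. The KD difference was -0.35 ± 0.31 at day 7 (SE, 95% confidence interval -1.03 to 0.33, adjusted p = 0.558) and 0.19 ± 0.36 at day 0 (95% confidence interval -0.59 to 0.97, adjusted p = 0.870, limma). The day 0 value turned to -0.24 without KD replicate 1 and to -0.05 without Control replicate 3. A level this close to the bottom of the scale limits what can be seen in either direction.

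Both monoamine oxidase genes were lower at day 7 than at day 0, and in KD cells both passed the test. In KD cells 2 of 2 fell, where 16.8% of all genes fell, 19% rose and 35.8% were called in either direction. Maoa averaged 10.36 ± 0.34 at day 7 (SD, n = 4) and 11 ± 0.06 at day 0 (SD, n = 3), a log2 difference of -0.64 ± 0.15 (SE, adjusted p = 0.00527, limma), or 64% of the day 0 level. Its call was lost with replicates 1 and 2 averaged (-0.63, adjusted p = 0.0755, in a range of 0.000183 to 0.0755 over the alternatives). The second Maoa probe set also fell, with -1.12 ± 0.27 (SE, adjusted p = 0.00581 over all probe sets, limma). Maob averaged 2.62 ± 0.41 at day 7 (SD, n = 4) and 3.94 ± 0.76 at day 0 (SD, n = 3), with -1.31 ± 0.34 (SE, adjusted p = 0.00814, limma). Every day 7 array of KD cells lay below every day 0 array for both genes. The share of all genes that separate in this way is not given here, so this is a description only.

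In Control cells neither passed (0 of 2, limma, and 1 of 2 at an unadjusted p under 0.05). There 22.9% of all genes were called, 10.1% higher and 12.8% lower. Day 7 arrays again all lay below day 0 arrays, a description given without the share of all genes. Maoa averaged 10.18 ± 0.16 at day 7 and 10.50 ± 0.05 at day 0, with -0.32 ± 0.15 (SE, adjusted p = 0.173, limma). Maob averaged 2.98 ± 0.20 at day 7 and 3.74 ± 0.56 at day 0, with -0.77 ± 0.34 (SE, adjusted p = 0.130, limma). Maoa passed in Control cells with the beta-actin covariate (-0.45, adjusted p = 0.0376) and without KD replicate 3 of day 7 (-0.32, adjusted p = 0.05 after rounding), in a range of 0.0376 to 0.416 over the alternatives. The decreases in KD and Control cells were not shown to differ: that difference is the one given above for Maoa, and for Maob it was -0.54 ± 0.48 (SE, adjusted p = 0.675, limma).

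Maoa was followed most closely over the 14 arrays by Pde2a (r = 0.926), which encodes a phosphodiesterase that breaks down cyclic AMP and cyclic GMP, Fbxo21 (0.924) and the zinc transporter gene Slc39a6 (0.916). Pde2a was at 8.64 ± 0.25 in KD and 7.65 ± 0.25 in Control cells at day 0 (SD, n = 3 each), and at 7.48 ± 0.45 in KD and 7.29 ± 0.26 in Control cells at day 7 (SD, n = 4 each). Maob was followed by Fam174a (0.948), Zfp950 (0.931) and Rab11fip2 (0.930). Day 0 and day 7 arrays share in these values, so a common change with differentiation enters each of them.

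The rest of amine transport, adrenoceptors, synthesis and breakdown was listed by name, and 24 of its 31 genes were matched. In the main setting no gene of these 4 lists passed for KD against Control at either day. Of all genes, 6.58% were called at day 7 and 1.8% at day 0, so few calls would be looked for among 24 genes. The absence of calls in these 4 lists, here and below, is therefore not read as a result about them. With the replicate block, 1 synthesis and 1 breakdown gene passed at day 7, both higher in KD cells. The block also raised the calls over all genes at both days, as given in the last section. These added calls are therefore not read as particular to the lists. Of 6 matched amine transporter genes 0 passed at day 7 (1 at an unadjusted p under 0.05) and 0 at day 0 (2 unadjusted), by limma. Slc18a2, the vesicular monoamine transporter gene, came closest at day 7, with 5.80 ± 0.18 in KD and 5.34 ± 0.16 in Control cells (SD, n = 4 each; 0.46 ± 0.13, SE, adjusted p = 0.058, limma). It rose from day 0 in KD cells by 0.54 ± 0.14 (adjusted p = 0.0101). Slc6a3 and Slc6a4, the dopamine and serotonin transporter genes nearest in kind to Slc6a2, had -0.29 ± 0.20 and 0.05 ± 0.28 at day 7 (adjusted p = 0.418 and 0.952). The other adrenoceptor genes matched were Adra1b and Adra2c. Adra1b was at 4.51 ± 0.12 in KD and 4.56 ± 0.19 in Control cells at day 7, and Adra2c at 4.25 ± 0.16 in KD and 4.41 ± 0.12 in Control cells (SD, n = 4 each), and neither passed at either day (0 of 2 also unadjusted).

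Among catecholamine synthesis genes, Th and Dbh were dim. Th, the rate-limiting tyrosine hydroxylase, was at 3.45 ± 0.25 in KD and 3.24 ± 0.20 in Control cells at day 7, and Dbh, which makes noradrenaline from dopamine, at 4.54 ± 0.11 in KD and 4.68 ± 0.37 in Control cells (SD, n = 4 each). Of the 9 genes 0 passed for KD at day 7 (1 unadjusted) or at day 0 (0 unadjusted), by limma. Spr, a sepiapterin reductase of cofactor synthesis, came closest (0.55 ± 0.16 at day 7, SE, adjusted p = 0.0551, limma), and passed with the replicate block (adjusted p = 0.0158). Ddc, the aromatic amino acid decarboxylase gene, fell with differentiation in both genotypes. It was at 2.64 ± 0.69 at day 7 and 5.02 ± 0.18 at day 0 in KD cells (-2.38 ± 0.35, adjusted p = 0.00017, limma), and at 2.78 ± 0.11 at day 7 and 4.74 ± 0.71 at day 0 in Control cells (-1.95 ± 0.35, adjusted p = 0.00152).

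Of the 7 other amine breakdown genes matched, 0 passed for KD at day 7 (2 unadjusted) and 0 at day 0 (0 unadjusted), by limma. With the replicate block Rnls, which encodes renalase, passed at day 7 (0.50 ± 0.12, SE, adjusted p = 0.0338, against 0.0711 without the block). With differentiation 2 rose and 0 fell in KD cells, where 19% of all genes rose and 16.8% fell. In Control cells 3 rose and 0 fell, where 10.1% of all genes rose and 12.8% fell. Rnls was at 6.42 ± 0.17 at day 7 and 5.04 ± 0.15 at day 0 in KD cells (1.38 ± 0.17, adjusted p = 4.26e-05, limma). In Control cells it was at 5.91 ± 0.35 at day 7 and 5.18 ± 0.12 at day 0 (0.73 ± 0.17, adjusted p = 0.00712). Aoc3, a cell surface amine oxidase abundant in fat cells, rose by 1.12 ± 0.25 in KD cells (adjusted p = 0.00303) and by 0.75 ± 0.25 in Control cells (adjusted p = 0.0446). Sult1a1, a sulfotransferase gene, rose by 1.92 ± 0.57 in Control cells (adjusted p = 0.0274, limma). With replicates 1 and 2 averaged 0 of these 3 Control increases passed, and the Aoc3 call was lost under 12 of 26 alternatives.

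Downstream of the receptors, the genes that passed with KD were 2 phosphodiesterases and an arrestin, and these 3 were lower. Of 29 matched genes of receptor signalling (G proteins, adenylyl cyclases, protein kinase A, receptor kinases, arrestins and phosphodiesterases), 2 fell and 0 rose at day 7, and 2 fell and 0 rose at day 0. With the replicate block 2 fell and 1 rose at day 7, the added gene being Adcy6, an adenylyl cyclase gene (0.47 ± 0.11, SE, adjusted p = 0.0266). At day 0, 3 fell, the added gene being Pde4b, a phosphodiesterase gene (-0.71 ± 0.12, adjusted p = 0.0193). The list's median difference was -0.02 at day 7 and -0.06 at day 0, against -0.016 and -0.051 for all genes. Over all 6 lists 3.28% of 61 genes were called at each day, against 6.58% of all genes at day 7 and 1.8% at day 0. These shares are without the block, which raised the calls over all genes at both days, as given in the last section. Of 8 genes induced by cyclic AMP, such as Nr4a1 and Fos, 0 passed for KD at day 7 (2 unadjusted) or at day 0 (1 unadjusted), by limma. With the replicate block 1 fell at day 7, the kinase gene Sik1 (-0.61 ± 0.13, SE, adjusted p = 0.0198, against 0.0668 without the block).

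**Figure D4:**
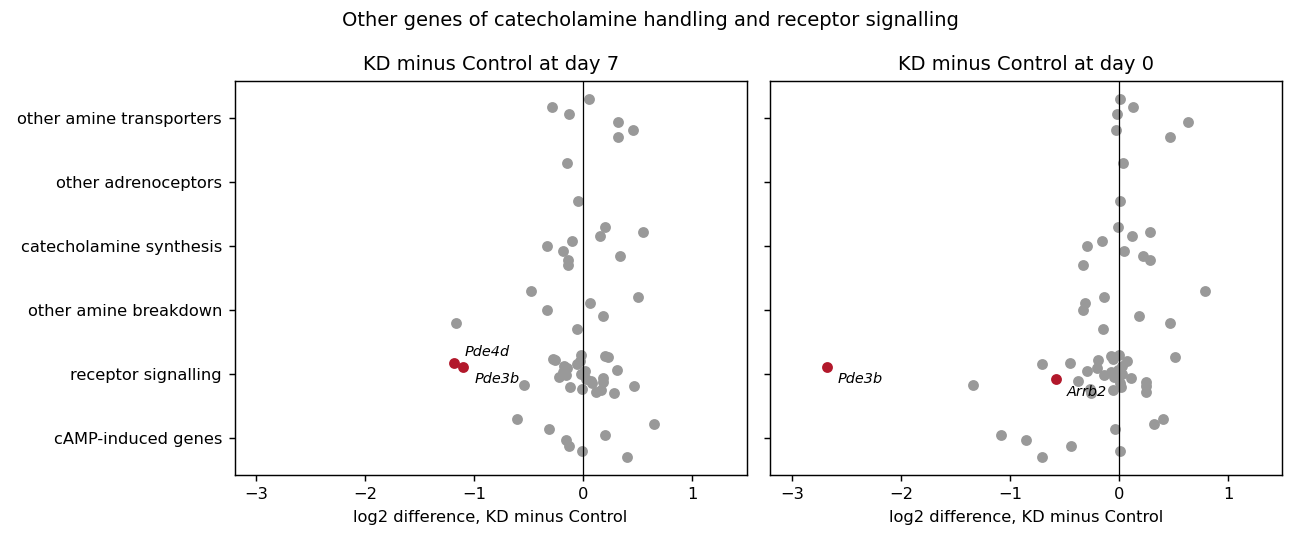
Log2 differences KD minus Control for the 61 matched genes of 6 lists, at day 7 on the left and day 0 on the right, 1 point per gene, red and named where the limma adjusted p was under 0.05. Pde4d and Pde3b at day 7 and Pde3b and Arrb2 at day 0 are the red points, all left of 0.

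Pde3b and Pde4d encode phosphodiesterases that break down cyclic AMP. Pde4d was at 7.34, 7.33, 7.78 and 7.17 in KD and 8.73, 8.68, 8.47 and 8.49 in Control replicates at day 7 (-1.19 ± 0.13, SE, adjusted p = 0.000477, limma). Its second, dim probe set had -0.21 ± 0.24 (adjusted p = 0.702 over all probe sets). Pde3b was at 6.55, 6.93 and 6.21 in KD and 9.29, 9.13 and 9.32 in Control replicates at day 0 (-2.68 ± 0.25, adjusted p = 0.000306, limma). At day 7 it was at 8.48, 8.51, 8.51 and 8.65 in KD and 10.04, 10.06, 8.96 and 9.50 in Control replicates (-1.10 ± 0.22, adjusted p = 0.0134). The day 7 call of Pde3b was lost with replicates 1 and 2 averaged (-0.95, adjusted p = 0.178). Arrb2, which encodes beta-arrestin 2, was at 7.84, 7.52 and 7.70 in KD and 8.47, 8.10 and 8.22 in Control replicates at day 0 (-0.58 ± 0.13, adjusted p = 0.0404), a call lost under 17 of 26 alternatives, the beta-actin covariate among them (-0.46, adjusted p = 0.132). Over the alternatives its adjusted p reached 0.327. At day 7 Arrb2 did not pass (0.03 ± 0.11, SE, adjusted p = 0.920, limma).

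With differentiation, 8 receptor signalling genes rose and 7 fell in KD cells, and 5 rose and 4 fell in Control cells, of 29 matched. Of all genes 19% rose and 16.8% fell in KD cells, and 10.1% rose and 12.8% fell in Control cells. With replicates 1 and 2 averaged 6 of the list rose and 1 fell in KD cells, and 1 rose and 1 fell in Control cells. The median difference of the list was 0.03 in KD and 0.05 in Control cells. Among those that fell was Adcy7, an adenylyl cyclase gene, by 1.63 ± 0.41 on the log2 scale in KD cells (adjusted p = 0.00677, limma, and 0.069 with replicates 1 and 2 averaged) and by 2.43 ± 0.41 in Control cells (adjusted p = 0.00103). Arrb1, which encodes beta-arrestin 1, rose by 1.24 ± 0.22 in KD cells (adjusted p = 0.000807) and by 0.79 ± 0.22 in Control cells (adjusted p = 0.0231, and up to 0.132 over the alternatives). Pde3b rose by 1.97 ± 0.24 in KD cells (adjusted p = 3.6e-05, limma), against 0.39 ± 0.24 in Control cells (adjusted p = 0.279), and these were not shown to differ (1.58 ± 0.33, adjusted p = 0.0929). Ppargc1a, a coactivator gene of the cyclic AMP list, fell by 1.23 ± 0.24 in KD cells (adjusted p = 0.00129) and by 1.56 ± 0.24 in Control cells (adjusted p = 0.000524). Of the 8 genes in that list 1 rose and 2 fell in KD cells, and 0 rose and 3 fell in Control cells, where 35.8% and 22.9% of all genes were called. With replicates 1 and 2 averaged 0 rose and 1 fell in KD cells, and 1 fell in Control cells. Crem, a cyclic AMP response modulator gene, was at 6.70 ± 0.36 at day 7 and 5.60 ± 0.56 at day 0 in KD cells (1.10 ± 0.38, adjusted p = 0.0379, limma), and its probe set of largest spread gave -0.26. That call was also lost under 7 other alternatives. Nr4a1, an orphan nuclear receptor gene, was at 6.29 ± 0.36 at day 7 and 7.84 ± 1.08 at day 0 in Control cells (-1.56 ± 0.48, adjusted p = 0.0337, limma). Control replicate 3 of day 0 was at 9.09, against 7.23 and 7.21 in replicates 1 and 2, and without it the difference was -0.93 (adjusted p = 0.152). The call of Nr4a1 was lost under 8 of 26 alternatives.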

How the data were processed

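The submitters' processing notes name RMA, a method that corrects background, quantile normalizes and summarises probes, and the affy package (versions not given in the sources used here), and the authors' deposited values are on a log2 scale. RNA was amplified before labelling, per the labels' protocols. Base 2 was read from the range of values. Of 45101 probe sets, 64 controls were left out; 34945 had 1 gene symbol, 932 several, and 9160 are unnamed here. Of 18193 genes, 18032 were found by ID in a RefSeq table (GRCm38.p6), and 0 symbols changed. The highest-mean probe set stood for each gene. All 14 arrays entered 1 limma 3.58.1 fit of group means in R 4.3.3 (lmFit, eBayes), with Benjamini-Hochberg adjustment over all genes and calls at an adjusted p under 0.05. The fit was tested on simulated data with independent arrays, for the genes brighter than the median. That test does not cover arrays as alike as replicates 1 and 2. RMA compresses changes of dim genes, and precision is limited by how few arrays there are.

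Alternatives covered the replicate block, averaging of replicates 1 and 2, normalization, a filter on dim genes, the choice of probe set, the variance model, the arrays in the fit, a beta-actin covariate and each array left out. The members and lists were chosen with earlier results of these data known. Named list genes were those called in a KD comparison and up to 4 per list with the largest called change with differentiation; the genes given as most alike were the 5 highest Pearson r for Slc6a2 and 3 for each other member. Genes that came closest to the threshold or passed only with the replicate block, Slc6a3, Slc6a4, Adra1b, Adra2c, Th, Dbh and the markers were named outside that rule, after their values were seen. Same-numbered KD and Control arrays deviated together (r from 0.268 to 0.329 at day 0 and 0.202 to 0.764 at day 7 over the 9096 brighter genes). The replicate number was therefore taken to pair them, from the data and not from a stated design. At day 7 that pairing was not clear for every number. KD replicate 1 went more with Control replicate 2 (r = 0.679) than with Control replicate 1 (0.55). KD replicate 4 went more with Control replicates 1 and 2 (0.245 and 0.263) than with Control replicate 4 (0.202). Results with the replicate block and same-number differences, at day 0 and at day 7, rest on this assumption. The block also gives arrays of the same number a shared effect over both days. The r values above compare arrays of the same day only, so that sharing between days was not examined.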

Additional observations from a re-analysis of the deposited data

Results flagged for a closer look

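The spread of 2 named genes within the KD cells of day 7 was marked by 1 array far from the other 3, by Dixon's ratio of the gap to the range. Sult1a1 was at 8.07, 7.96, 7.97 and 9.02, with replicate 4 apart (ratio 0.893). Pde3b was at 8.48, 8.51, 8.51 and 8.65, with replicate 4 apart (ratio 0.836). Chance marks about 1 in 20 groups, and 52 groups of 4 arrays were examined. The Slc6a2 level of KD replicate 3 at day 7 was not marked.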

How the results depend on the processing

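Under the alternatives tried, the direction of Slc6a2 at day 7 held in 26 of 26, with KD minus Control between -3.37 and -0.90. That count is no support, because refits of the same values could hardly turn the sign. Slc6a2 was chosen for this direction, and its KD and Control arrays of day 7 did not overlap. The mean of all its probe sets gave the values nearest 0. They were -0.90 at day 7, -0.74 for the difference between days and 0.94 for differentiation in Control cells. Probe sets with smaller differences enter that mean, and why the probe sets differ was not tested. For KD at day 0, 1 of the 3 members was called with the replicate block (Maoa, adjusted p = 0.0475) and 0 to 1 when single arrays were left out. For KD at day 7 and for the difference between days, 0 of 2 were called under each alternative. With differentiation of Control cells 1 of 2 was called with the beta-actin covariate and 0 to 1 without single arrays. In KD cells 1 of 2 was called with replicates 1 and 2 averaged and 1 without the dimmest 40% of genes, a filter that removes Maob; 2 were called in each fit that left out 1 array. The replicate block changed no other member's call. The values that changed sign were Maob for KD at day 0 (0.19 in the main setting, -0.24 to 0.50 with single arrays left out, among them -0.05), Maoa for KD at day 7 with the most variable probe set of each gene, by interquartile range (-0.16), and Crem for differentiation of KD cells with that probe set (-0.26, against 1.10 called). Leaving out all replicate 3 arrays, chosen after seeing the data, gave -3.07 for Slc6a2 at day 7 and changed no member's call. Counts over all 18193 genes moved more. For KD at day 0 they were 572 with the replicate block, 24 with replicates 1 and 2 averaged and 889 without replicate 3 arrays, against 328. At day 7 they were 1850, 64 and 2742 in that order, against 1197. Causes not given here were not tested.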
